A study of Mus with 48 samples.

Results

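To see what treadmill exercise after MPTP did to the transcriptome of the substantia nigra (SN), the SN of 4 mice of the MPTP + EX group (E26, E27, E28 and E29) was compared with the SN of 4 mice of the MPTP group (M6, M16, M21 and M23). These are 8 of the 48 libraries of a study of 12 mice and 4 brain regions, and were chosen by region and treatment alone. All mice were female C57BL/6J, bought at 8 weeks of age. Both groups received MPTP with probenecid, as 10 doses of 25 mg/kg under the skin. The MPTP + EX mice then had forced treadmill running over 12 weeks, on 5 days a week, with 40 min daily and a top speed of 15 m/min. The 4 saline mice (S1 to S4) did not enter the comparison, and their SN levels are given beside it. There were no exercised mice without MPTP among the samples. Each library held the SN of 1 mouse, dissected by hand from the brain, so it contains all cell types of the piece that was cut.

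The SN is a midbrain nucleus whose compact part holds dopaminergic neurons that project to the striatum, and whose reticular part holds GABAergic output neurons among bundles of myelinated axons. MPTP is converted in the brain to a toxin that the dopamine transporter carries into these dopaminergic neurons, where it blocks respiration in mitochondria and kills many of them. Glutamatergic neurons that use the vesicular transporter Slc17a7 are typical of the neocortex and hippocampus, which lie close to the midbrain, and are few in the SN itself.

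The libraries matched their label. Slc6a3, the dopamine transporter, was 141 to 306 FPKM (fragments scaled to the length of the transcript and the size of the library) in the SN of saline mice and 0.0519 on average in their cortex. The summed FPKM of 22 markers of dopaminergic neurons was 955.5 to 1959 with saline, 335.8 to 426.9 with MPTP and 346.2 to 458 in MPTP + EX. Read counts are not given, so the depth behind each FPKM is unknown. The steps between low FPKM values put the relative depth of the 8 libraries within 1.403-fold. Between 13233 and 13593 genes lay above 1 FPKM in each, and the median correlation with the libraries of the same group was 0.979 to 0.986.

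Exercise was followed by few differences that passed the adjusted threshold. Of 13496 genes with a mean above 1 FPKM, 1 (0.00741%) differed at an adjusted p under 0.05 (limma on log2(FPKM + 1), two-sided, Benjamini-Hochberg over all genes). At an unadjusted p under 0.05 were 1067 genes (7.91%), of which 482 (3.57%) were higher and 585 (4.33%) lower in MPTP + EX. The groups did not overlap for 642 genes (4.76%), of which 307 (2.27%) were higher and 335 (2.48%) lower. The mean was above 0 for 53.5% and below 0 for 46.5% of the genes. These shares are the background for the counts below. The median difference of all genes was 0.01 on the log2 scale and their SD 0.188.

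The gene that passed was Itpka, a kinase of inositol trisphosphate that also bundles actin in the dendritic spines of forebrain neurons. It was 5.31, 5.35, 4.39 and 3.17 FPKM in E26 to E29. In M6, M16, M21 and M23 it was 20.9, 17.2, 13.9 and 21.7 FPKM. Every exercised mouse lay below every MPTP mouse, and Itpka fell by 1.80 on the log2 scale (standard error 0.169, adjusted p = 0.0228 from limma). The saline mice had 4.6, 12.1, 2.40 and 21.2 FPKM, so they reached from below the MPTP + EX mice to the level of the MPTP mice. With these saline mice in the fit, the adjusted p was 0.422. The call was also lost without E26, E28, M16, M23 or M6, where the adjusted p was 0.055, 0.177, 0.15, 0.132 and 0.0775. In the cortex, cerebellum and striatum of the same mice the differences of Itpka were -0.04, 0.01 and -0.07, and the difference between SN and cerebellum had an adjusted p of 0.0861.

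**Figure D1:**
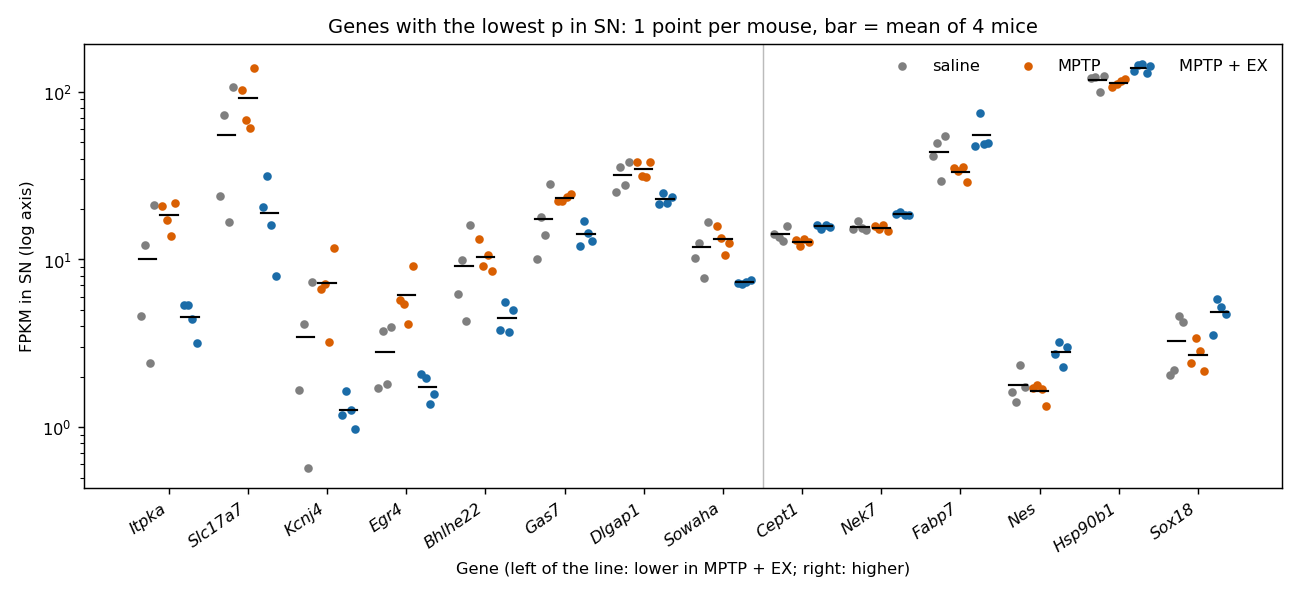
FPKM in the SN (log axis) of 8 of the genes with the lowest p that were lower in MPTP + EX and 6 that were higher, with 1 point per mouse and a bar at the mean of the 4 mice of a group. The 14 genes were picked among genes whose MPTP + EX and MPTP mice do not overlap, and the saline mice of Itpka reach from 2.40 to 21.2 FPKM.

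None of the other genes with the lowest p that were lower in MPTP + EX passed adjustment (adjusted p = 0.147 to 0.172). Of these 15 genes, Itpka included, 6 had their highest saline level in the cortex, 5 in the cerebellum, 4 in the striatum and 0 in the SN. The shares of the 15 were 40%, 33.3%, 26.7% and 0%, against 14.8%, 34.1%, 14.5% and 36.6% of all genes tested. Slc17a7, the vesicular glutamate transporter of cortical neurons, was 20.4, 31.4, 16.1 and 7.98 FPKM in E26 to E29 and 102, 67.9, 61.1 and 138 in M6, M16, M21 and M23. The groups lay apart by a log2 difference of -2.29 (standard error 0.382), but the saline mice spanned both, at 24.0, 72.8, 16.7 and 106 FPKM. Kcnj4, an inwardly rectifying potassium channel, was 0.969 to 1.65 FPKM in MPTP + EX and 3.22 to 11.7 in MPTP, and 0.569 to 7.36 in saline mice. Egr4, a zinc finger transcription factor induced when neurons fire, was 2.08, 1.96, 1.37 and 1.57 FPKM in E26 to E29, where the MPTP mice had 4.15 to 9.10. In this gene the saline mice were at 1.72 to 3.97, all below the lowest MPTP mouse.

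Bhlhe22, a transcription factor of developing neurons, was 4.51 ± 0.904 FPKM in MPTP + EX (± is the SD over n = 4 mice) against 10.4 ± 2.08 in MPTP. Gas7, which binds actin in growing neurites, was 14.1 ± 2.18 against 23.2 ± 1.13 FPKM, and Mical2, an enzyme that takes actin filaments apart, 13 ± 1.84 against 24.5 ± 4.83. Smaller differences with little spread within the groups were seen for Dlgap1, a scaffold of the postsynaptic density (22.9 ± 1.61 against 34.7 ± 4.03 FPKM), and for Shank2, which binds it. Shank2 was 10.2 to 11.1 FPKM in MPTP + EX, 14.1 to 18.1 in MPTP and 13.6 to 16.8 with saline, so here the saline mice lay with the MPTP mice. Porcn, which attaches the lipid that Wnt proteins need for secretion, showed the same order, at 19.6 to 22.3, 25.7 to 29.6 and 24.0 to 28.3 FPKM. The remaining genes of the 15 were Sowaha, Phf21b, D430041D05Rik, Phyhip and Dbp. Their log2 differences lay between -0.43 for D430041D05Rik and -0.75 for Sowaha.

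The genes whose 2 groups did not overlap were placed beside the saline mice. For 225 of the 335 lower genes (67.2%) the saline mice reached both the MPTP and the MPTP + EX levels. In 40 no saline mouse reached the lowest MPTP mouse, and in 70 none came down to the highest MPTP + EX mouse. For 175 of the 307 higher genes (57.0%) the saline mice reached both, in 44 none came down to the highest MPTP mouse, and in 88 none reached the lowest MPTP + EX mouse.

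The lower genes leaned to genes that are high in the cortex. From the saline libraries, 121 of the genes tested were cortex-rich, meaning at least 2 higher on log2(mean FPKM + 1) in cortex than in SN, and 104 were SN-rich by the same margin the other way. Of the 121 cortex-rich genes, 116 had a mean below 0 and 76 (62.8%, against 4.33% of all genes) were lower at an unadjusted p under 0.05, with none higher. Their median difference was -0.63, where the SN-rich genes had 0.06, with 6 higher (5.77%) and 2 lower (1.92%). The filter favours lower cortex-rich genes, because a gene low in the SN could pass it through the MPTP mice alone. How many did so was not counted. Without any 1 MPTP + EX mouse 121 cortex-rich genes were still tested, and without an MPTP mouse 116 to 120. These counts are therefore not independent evidence of a direction. The 13271 genes in neither class had 476 higher (3.59%) and 507 lower (3.82%). Without overlap, 38 cortex-rich genes (31.4%), 1 SN-rich gene (0.962%) and 296 of the rest (2.23%) were lower, against 0, 1 (0.962%) and 306 (2.31%) higher. In steps of 1 in cortex minus SN, from below -2 to above 3, the median difference went 0.06, 0.11, 0.03, -0.02, -0.23, -0.58 and -0.96. Of the 585 lower genes, 41.2% had their highest saline level in the cortex and 9.06% in the SN, while these shares were 14.8% and 36.6% of all genes tested. Among the 482 higher genes, 58.5% were highest in the SN.

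**Figure D2:**
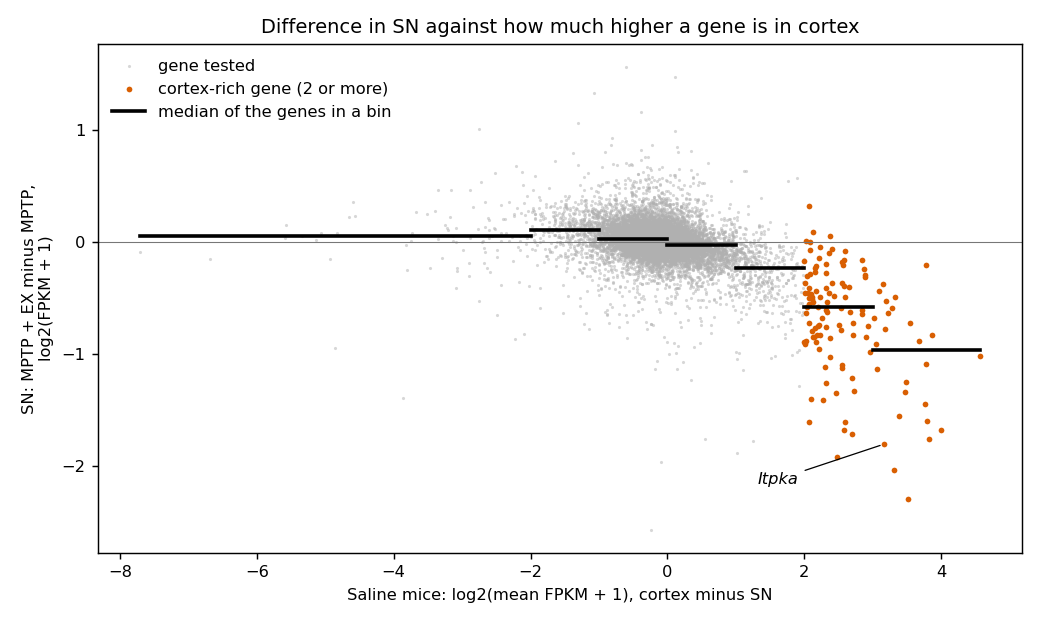
Difference between MPTP + EX and MPTP in the SN (log2(FPKM + 1)) against the difference between cortex and SN in saline mice, with 1 point per gene, the 121 cortex-rich genes in orange and black bars at the median of each bin. The bar falls from 0.03 in the bin below 0 to -0.96 above 3, where all 26 genes lie below 0.

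The level of these genes also varied widely among the saline and among the MPTP mice. The summed FPKM of the 121 cortex-rich genes was 1372, 1576, 1346 and 1441 in the SN of E26 to E29. It was 2705, 2931, 1769 and 3388 in M6, M16, M21 and M23, and 1377, 2137, 1574 and 2672 in S1 to S4. The exercised mice were thus alike and low, M21 was the lowest MPTP mouse, and 2 saline mice lay at the level of MPTP + EX and 2 near that of MPTP. In the cortex of the same mice the sum was 11820 to 13280. In other regions the median difference of the 121 genes was smaller, -0.02 in the cortex, -0.06 in the cerebellum (87 genes tested) and 0.12 in the striatum (3 MPTP + EX mice, without E29, whose striatum library stood apart). At an unadjusted p under 0.05, 6 of them were higher and 7 lower in the cortex (background 3.11% and 2.14%), 5 and 15 of 87 in the cerebellum (3.34% and 2.98%), and 22 and 13 in the striatum (4.41% and 4.44%). In the cerebellum 57 of the 87 lay below 0, and in the striatum 83 of the 121 above 0. In bulk tissue, fewer cells of a type and less RNA per cell cannot be told apart, and the part that the amount of cortical or hippocampal tissue in a piece has in these differences was not tested. Without M21, 37 genes passed adjustment, none of them higher and 26 of them cortex-rich; without any other single mouse, 0 to 2 did.

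Counted only over the 8593 genes that were no higher in the saline cortex than in the saline SN, a set added once the pattern was known, 112 (1.3%) were lower and 408 (4.75%) higher at an unadjusted p under 0.05. Among lower genes that were not cortex-rich, Ube2m and Lrch4 are named after their values were seen. Ube2m, which conjugates NEDD8 to cullins, was 58.9, 67.2, 56.1 and 55.2 FPKM in E26 to E29 against 69.1, 108, 127 and 113 in M6, M16, M21 and M23 (log2 difference -0.77, standard error 0.167, adjusted p = 0.26). Lrch4 was 4.47, 1.18, 0.961 and 10.5 FPKM in E26 to E29 against 13.4 to 16 in MPTP, and 2.06 to 16.1 with saline.

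Markers of excitatory neurons and interneurons of the forebrain were lower on average, while those of medium spiny neurons of the striatum showed no lean (12 tested, 5 above and 7 below 0, median -0.07, none at an unadjusted p under 0.05). Of 24 markers of neocortical and hippocampal excitatory neurons tested, 13 were lower and none higher at an unadjusted p under 0.05, and the median difference was -0.87. Cortex-rich genes made up 13 of the 24, so the list shares genes with the cortex-rich set and is not separate from it. Their summed FPKM was 269.3 to 338.6 in MPTP + EX, 398.8 to 935.9 in MPTP and 291.5 to 785.3 with saline. Neurod2, a transcription factor of maturing cortical neurons that the study names for the SN, was 4.34, 5.8, 1.73 and 2.48 FPKM in E26 to E29 and 12.2, 8.62, 13.7 and 14.7 in M6, M16, M21 and M23 (log2 difference -1.60, adjusted p = 0.193). Rtn4rl2, a relative of the Nogo receptor and likewise named by the study, was 0.825 to 1.47 against 1.62 to 11.1 FPKM (log2 difference -1.72, adjusted p = 0.354). For both genes the saline mice covered the levels of both groups, at 1.64 to 13.1 FPKM for Neurod2 and 0.724 to 10.9 for Rtn4rl2. The forebrain transcription factors Emx1 and Fezf2 differed by -1.45 and -1.41, and in Fezf2 M21 overlapped the exercised mice. Both passed the filter only through the MPTP mice, with means of 0.373 and 0.516 FPKM in MPTP + EX against 3.01 and 3.24 in MPTP.

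Markers of forebrain GABAergic interneurons followed, with 6 of 13 lower, none higher, and a median of -0.50. Cortex-rich genes made up 4 of the 13. Their sum was 403 to 479.9 FPKM in MPTP + EX, 643.5 to 714.6 in MPTP and 447 to 633.9 with saline. The neuropeptide Npy was 4.43, 4.29, 5.67 and 8.88 FPKM in E26 to E29 and 15.8, 14.8, 13.7 and 34.9 in M6, M16, M21 and M23, a log2 difference of -1.55 (adjusted p = 0.235). Cort, a peptide of a subset of cortical interneurons, was 0.2 to 0.325 against 1.10 to 7.73 FPKM. Cort was among the 6 lower markers but passed the filter only through the MPTP mice, with means of 0.256 FPKM in MPTP + EX and 4.54 in MPTP. Cck overlapped between the groups through M21 (53.9 FPKM).

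**Figure D3:**
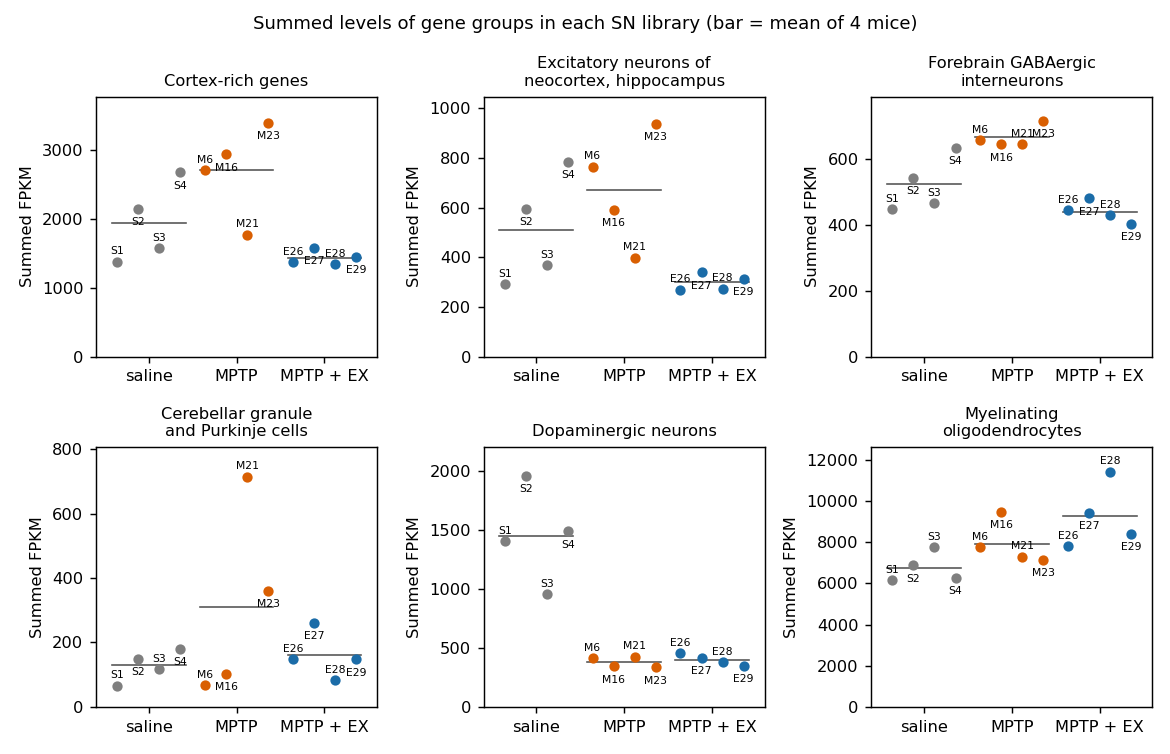
Summed FPKM of 6 groups of genes in the SN library of each saline, MPTP and MPTP + EX mouse, with a bar at the mean of 4 mice. The 4 MPTP + EX mice are low for cortex-rich genes (1346 to 1576 FPKM) beside a wide spread of saline mice (1377 to 2672), and the sums of dopaminergic markers of MPTP and MPTP + EX mice overlap.

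Genes that neurons switch on with activity differed in the same direction. Of 40 immediate early and activity-regulated genes, 13 were lower and 2 higher, with a median of -0.23, and 10 of the 40 were cortex-rich. Nr4a3, an orphan nuclear receptor, was 1.23 to 2.83 FPKM in MPTP + EX and 3.18 to 7.59 in MPTP (log2 difference -0.99, adjusted p = 0.354). Plk2, a kinase, and Homer1, a postsynaptic scaffold, differed by -0.62 each, and Fosl2, a partner of Jun, by -0.71. Fos and Arc, the best known members, are named after their values were seen. Fos was 17.1, 11.4, 13.7 and 12.9 FPKM in E26 to E29 and 12.6, 15.4, 13.8 and 11.5 in the MPTP mice, a difference of 0.04 (95% interval -0.24 to 0.32). Arc was 6.65 to 12.2 against 9.16 to 34.5 FPKM, a log2 difference of -0.83 that was among the 13 lower ones, with M21 inside the range of the exercised mice. Klf4 and Plk3, also picked afterwards, were the 2 higher members (log2 differences 0.71 and 0.35). In the striatum, cortex and cerebellum the medians of the 40 genes were 0.12, 0.20 and 0.04.

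Genes of the circadian clock tended to be lower in the SN of MPTP + EX mice than of MPTP mice, and the saline mice were not above MPTP in the sums. The summed FPKM of the clock outputs was 435.6 to 593.9 in MPTP + EX, 562.7 to 656.3 in MPTP and 440.7 to 473.7 with saline. The sum of the core clock genes was 331.6 to 347.7, 341.5 to 383.5 and 320.7 to 346.1 in the same order. Of 18 core clock genes, none of them cortex-rich, 5 were lower and none higher (median -0.11), and of 17 clock outputs 5 were lower and none higher (median -0.18). Dbp, a transcription factor driven directly by the clock, was 44.5, 34.7, 35.9 and 40.9 FPKM in E26 to E29 and 53.7, 54.8, 60.2 and 65.3 in M6, M16, M21 and M23. Every exercised mouse lay below every MPTP mouse (log2 difference -0.57, standard error 0.0927, adjusted p = 0.172). Saline mice had 35.5 to 55.9 FPKM. Per2, a repressor in the core loop, was 6.13 to 8.49 against 8.33 to 12.2 FPKM and overlapped through M6 and E26. With saline Per2 was 6.05 to 7.70 FPKM, below every MPTP mouse. Cry2, another repressor of that loop, was 26.2 to 32.2 against 33.6 to 37.4 FPKM, and Per1, Per3 and Cry1 overlapped, with differences of -0.38, -0.22 and -0.33.

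The same genes were lower on average in the other regions of the exercised mice. Of the core clock genes 6 of 17 were lower at an unadjusted p under 0.05 in the cortex, 5 of 17 in the cerebellum and 7 of 18 in the striatum, and of the 17 outputs 8, 6 and 7 were. Higher were 0, 2 and 1 of the core genes and 0, 1 and 1 of the outputs in the same order, and in the striatum 8 of the 18 core genes had a mean above 0. Dbp differed by -0.57 in the cortex, -0.61 in the cerebellum and -0.76 in the striatum without E29, and in each region the groups did not overlap, where 1.5%, 1.53% and 4.48% of the genes tested were lower without overlap. Per2 differed by -0.37, -0.63 and -0.57, again without overlap. Neither gene passed adjustment in a region (lowest adjusted p = 0.0719, for both in the cerebellum). The output Tef, a relative of Dbp, and Gm129, a repressor of the clock now called Ciart, differed in the SN by -0.23 and -0.34, and Rbm3, an RNA-binding protein that rises with cold, by -0.50. The regions come from the same mice, so they are not independent, and the sources used here do not state the hour of killing.

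**Figure D4:**
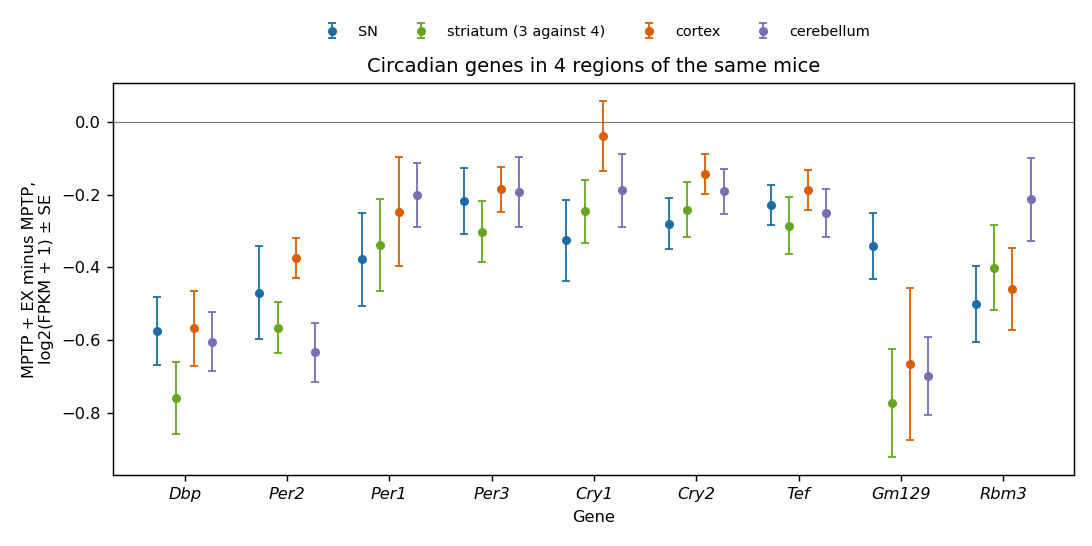
Difference between MPTP + EX and MPTP (log2(FPKM + 1), points, with standard errors as bars) of 9 clock and clock output genes in the SN, cortex and cerebellum (4 against 4 mice) and the striatum (3 against 4 mice). The genes were taken by their p in the SN, and all points lie below 0, from -0.04 for Cry1 in the cortex to -0.77 for Gm129 in the striatum.

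The study's question included synapses and axon guidance. Of 62 genes of synapse assembly, adhesion and scaffolds, 12 were lower and none higher, 49 had a mean below 0, and the median was -0.09. Of the 62, 3 were cortex-rich. Beside Dlgap1 and Shank2, the 12 lower genes included Baiap2, which shapes actin in spines, at 15.4 to 18.4 FPKM in MPTP + EX and 24.9 to 40.1 in MPTP (log2 difference -0.74). Bsn, a scaffold of the presynaptic active zone, was 12.2, 13.4, 11.7 and 14.8 FPKM in E26 to E29 and 19.9, 16.1, 19.4 and 23.3 in M6, M16, M21 and M23 (log2 difference -0.55, adjusted p = 0.239). The saline mice, at 22 to 27.7, were nearer to the MPTP mice. Iqsec2, an exchange factor for Arf proteins at excitatory synapses, differed by -0.37.

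Of 40 genes of vesicle release, 5 were lower and none higher, Sv2b and Synpr among them (log2 differences -0.72 and -0.44). Of 27 glutamate receptor subunits and their partners, 7 were lower and 1 higher, and 3 of the 27 were cortex-rich. Nptxr and Nptx1, pentraxins that gather AMPA receptors, differed by -0.90 and -0.86, and the NMDA receptor subunit Grin2a by -0.52. The higher one was Grin2d, an NMDA receptor subunit with its highest saline level in the SN, at 23.1, 19.3, 20.8 and 23.9 FPKM in E26 to E29 and 18.5, 17.5, 17.6 and 18.3 in M6, M16, M21 and M23 (log2 difference 0.26, adjusted p = 0.389). None of 14 GABA-A receptor subunits passed the unadjusted threshold. Of 57 potassium channel genes 12 were lower and 1 higher, and 10 of the 57 were cortex-rich. Kcnh3, a channel of forebrain neurons, was 0.867 to 1.92 FPKM in MPTP + EX, 2.26 to 12.4 in MPTP and 1.07 to 9.37 with saline. Kcnip2, a subunit that modulates fast potassium currents, was 6.09 to 7.53, 7.58 to 34.8 and 6.14 to 36.2 FPKM in these groups, so that M21 lay next to the exercised mice.

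Axon guidance genes did not lean either way, with 5 of 66 higher, 5 lower and a median of 0.00. The higher ones included the semaphorins Sema3f and Sema6a, both repellents of growing axons. Sema3f was 8.04, 7.42, 7.58 and 11.2 FPKM in E26 to E29 against 4.78, 5.68, 5.92 and 6.21 in M6, M16, M21 and M23 (log2 difference 0.51, adjusted p = 0.354). The lower ones included the netrin receptor Unc5a (-0.49), the ephrin receptor Epha7 (-0.46) and the ephrin Efnb2 (-0.32).

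**Figure D5:**
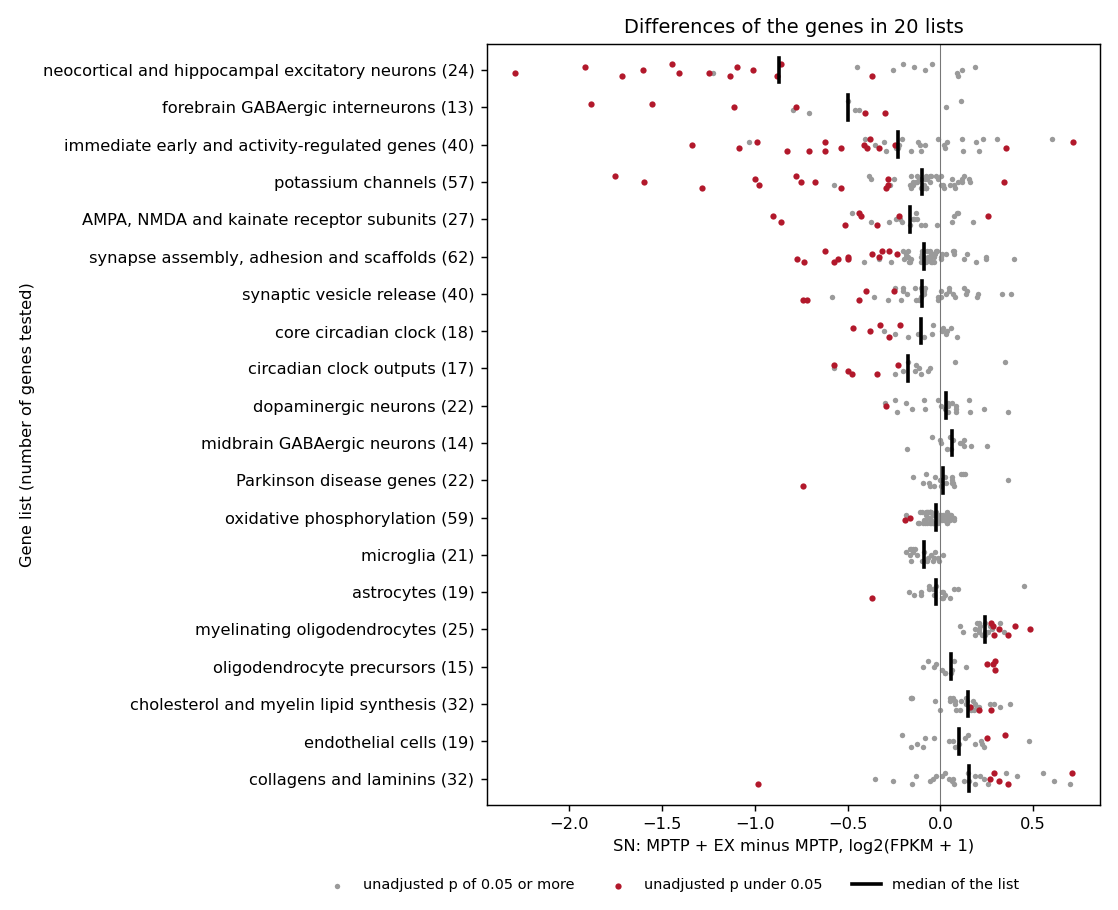
Difference between MPTP + EX and MPTP in the SN (log2(FPKM + 1)) of each gene tested in 20 lists, with genes at an unadjusted p under 0.05 in red and a black bar at the median of the list. Medians run from -0.87 for excitatory neurons to 0.24 for myelinating oligodendrocytes, and those of dopaminergic neurons (0.03) and oxidative phosphorylation (-0.02) lie near 0.

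Dopaminergic transcripts were not measurably different after exercise. Th, which makes the precursor of dopamine, was 45.2, 39.6, 28.1 and 19.2 FPKM in E26 to E29 and 40.1, 32.3, 36.9 and 31.4 in M6, M16, M21 and M23. The groups overlapped, and the difference was -0.15 with a 95% interval of -0.67 to 0.37. For Slc6a3 the difference was -0.09 (interval -0.56 to 0.38), for Slc18a2, which loads dopamine into vesicles, 0.04 (-0.22 to 0.30), and for Ddc, which makes dopamine, 0.06 (-0.24 to 0.36). In saline mice the same genes were 135 to 294 FPKM for Th and 54.0 to 118 for Slc18a2, far from both groups. E29 had the lowest level of all these genes among the exercised mice, and without it Th was 0.076 and Slc6a3 0.13 above the MPTP mice. Of the 22 markers, 13 were above and 9 below 0, and 1 passed the unadjusted threshold, the potassium channel Kcnj6 (4.74 ± 0.837 against 6.01 ± 0.663 FPKM). None of 14 markers of midbrain GABAergic neurons passed it.

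Genes linked to Parkinson's disease did not lean either way, with 13 of 22 above and 9 below 0 and a median difference of 0.02.

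Genes that were higher in MPTP + EX differed by less, and none passed adjustment (lowest adjusted p = 0.235). Cept1, which makes phosphatidylcholine and phosphatidylethanolamine, was 16, 15.2, 16.2 and 15.6 FPKM in E26 to E29 and 13.1, 12.1, 13.2 and 12.7 in M6, M16, M21 and M23. The saline mice, at 12.9 to 15.8, reached both groups. Nek7, a kinase of mitosis and of the NLRP3 inflammasome, was 18.4 to 19.1 FPKM in MPTP + EX, above all MPTP (14.8 to 15.9) and all saline mice (15 to 16.9). Oxsr1, a kinase that regulates chloride cotransporters, was likewise above both, at 26.4 to 30.2 against 21.8 to 23.8 with MPTP and 20.1 to 22.2 with saline. Arhgap18, which switches off small GTPases that act on the cytoskeleton, was 4.19 to 5.44 against 3.14 to 3.41 FPKM (log2 difference 0.46, standard error 0.0868).

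Fabp7, the fatty acid-binding protein of astrocytes and radial glia, was 47.5, 74.8, 48.7 and 49.4 FPKM in E26 to E29 and 35.1, 33.5, 35.5 and 29.2 in M6, M16, M21 and M23, a log2 difference of 0.69 (standard error 0.14, adjusted p = 0.239). It was also higher without overlap in the cortex (0.60), the cerebellum (0.79) and the striatum (0.47), where 1.78%, 2.08% and 4.11% of the genes tested were. Hsp90b1, a chaperone of the endoplasmic reticulum, was 138 ± 8.29 against 114 ± 5.01 FPKM. Of 27 chaperones, 2 were higher and 2 lower, among them Chordc1 (0.23), a partner of Hsp90, and Hspa2 (-0.46). The other genes of the 15 were Gm4532, Slc35g2, Eid2, 1700013G23Rik, Cyhr1 and Ccdc141, with log2 differences of 0.19 to 0.61, and Idi1, Nes and Sox18, which are described with their groups.

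Oligodendrocyte genes were higher as a group by a small amount. All 25 markers of myelinating oligodendrocytes had a mean above 0 (53.5% of all genes did), 7 were higher and none lower, and the median was 0.24. Gjc3, a connexin of oligodendrocytes, was 49.3, 60.1, 67.5 and 51.9 FPKM in E26 to E29 and 43.9, 50.3, 39.4 and 38.5 in M6, M16, M21 and M23 (log2 difference 0.40, standard error 0.114, adjusted p = 0.405). E26 lay just below M16, and the other mice did not overlap. The groups also overlapped for Myrf, the transcription factor of myelination (0.29), Trf, the iron carrier transferrin (0.31), and Ppp1r14a, an inhibitor of a phosphatase (0.37). The summed FPKM was 7800 to 11430 in MPTP + EX, 7142 to 9487 in MPTP and 6147 to 7770 with saline, with E28 the highest and M16 inside the range of the exercised mice. The medians of these markers were 0.07 in the cortex, -0.03 in the cerebellum and 0.03 in the striatum. At an unadjusted p under 0.05, 1, 2 and 0 of the 25 were higher there and none lower. Gjc3 itself was higher without overlap in the cortex (0.28) and the cerebellum (0.30), where 1.78% and 2.08% of the genes tested were. In the striatum Gjc3 differed by 0.22 and overlapped.

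Of 15 markers of oligodendrocyte precursors, 4 were higher and none lower. Olig2, which specifies the lineage, was 30.7 to 38.0 FPKM in MPTP + EX and 24.7 to 30.2 in MPTP, but 24.1 to 38.8 with saline. Bcas1, a mark of new oligodendrocytes, was 78.5 to 98.6 against 64.6 to 76.8 FPKM, and Olig1 and Cacng4 overlapped. Of 32 genes of cholesterol and myelin lipid synthesis, 27 had a mean above 0 and 3 were higher. Idi1, an isomerase on the way to cholesterol, was 13.9, 14.5, 14.2 and 15.2 FPKM in E26 to E29 and 12.2, 11.4, 11.3 and 12.3 in M6, M16, M21 and M23. Saline mice had 12.3 to 16.3. Oligodendrocyte genes are high in the SN (Gjc3 was 35.3 to 43.1 FPKM in the saline SN and 13.8 on average in the saline cortex), so they lie on the side of the region profile opposite to the cortical genes, and what the share of cortical tissue has to do with them was not tested.

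Some vessel genes were also among those higher. Sox18, a transcription factor of endothelial cells, was 3.57, 5.8, 5.21 and 4.75 FPKM in E26 to E29 and 2.42, 3.41, 2.84 and 2.17 in M6, M16, M21 and M23 (log2 difference 0.65, standard error 0.146, adjusted p = 0.294), and 2.03 to 4.58 with saline. Nes, the filament protein nestin of neural progenitors and of some vessel cells, was 2.28 to 3.24 against 1.34 to 1.79 FPKM. Of 19 endothelial markers 2 were higher, the adhesion molecule Esam (7.56 to 8.57 against 5.12 to 6.78 FPKM) and the secreted Egfl7, where 3.57% of all genes were. Of the 19, 13 had a mean above 0 and 6 below, with a median of 0.10. In the striatum 14 of the 19 lay below 0, with 6 lower and 1 higher at an unadjusted p under 0.05. In the cortex 2 were lower and 1 higher, and in the cerebellum 1 and 2. Of 16 markers of pericytes, smooth muscle and fibroblasts tested, 12 had a mean above 0 and the median was 0.47, but 1 was higher at an unadjusted p under 0.05, Col3a1. Their summed FPKM was 375.7, 270, 236.8 and 91.45 in E26 to E29 and 114.7 to 224.9 in MPTP, so the groups overlapped and E29 was the lowest of all 8 mice. Of 32 collagens and laminins, 5 were higher and 1 lower. Col4a1 and Col4a2, the collagens of the basement membrane, did not overlap, with Col4a1 at 8.48 to 10.2 against 5.35 to 8.03 FPKM and Col4a2 at 18.5 ± 1.06 against 14.8 ± 1.98. Col4a1 was also higher without overlap in the cortex (0.40) and the cerebellum (0.29). Col3a1, a collagen of connective tissue, was 3.48 FPKM in E26 and 0.689 in E29, while Col6a1 was lower on average (7.26 ± 5.05 against 14.1 ± 5.57) and spread from 1.89 to 50.3 in saline mice.

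Other lists are given by their counts. Of 21 microglial markers, 20 had a mean below 0 but none was at an unadjusted p under 0.05, and the median was -0.09. Of 19 astrocyte markers 1 was lower, the glutamate transporter Slc1a3 (70.3 to 106 against 109 to 137 FPKM). Of 59 genes of oxidative phosphorylation 2 were lower, Atp5g1 and Atp5g2, which encode the same subunit of ATP synthase (log2 differences -0.19 and -0.17), and none of 26 regulators of mitochondrial biogenesis passed. Of 37 genes of oxidative stress defence 1 was higher, the glutathione peroxidase Gpx3 (0.25). Of 38 apoptosis genes 2 were higher, Tradd (0.23) and the survival gene Bcl2 (0.22), and 1 was lower, Hrk (-0.47), which opposes Bcl2. Of 27 genes of glycolysis and lactate transport 5 were lower, with Slc2a3, the neuronal glucose transporter, at 29.5 to 32.2 against 34.5 to 37.5 FPKM, Ldha at 85.6 to 88.5 against 90.7 to 110, and Eno1 at 468 to 549 against 561 to 611. Of 22 interferon response genes 20 had a mean above 0 and none passed.

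Markers of tissue outside the SN also differed between single mice. The summed FPKM of cerebellar granule and Purkinje cell markers was 714.5 in M21 and 359.5 in M23, and 68.19 to 261.9 in the other 6 mice, and all 12 markers tested had a mean below 0 in MPTP + EX with none at an unadjusted p under 0.05. Blood markers summed to 8092 FPKM in M16 and to 734.4 to 1751 in the others. Slc5a7, the choline transporter of cholinergic neurons, was 8.03 FPKM in E29 and 0.0501 to 0.391 in the other 7 mice. The part of these markers in the differences was not tested.

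A last list holds genes that the study names for the SN and exercise, with the Fat genes counted singly. Of its 20 genes, 12 passed the filter, and Neurod2 and Rtn4rl2 were the 2 at an unadjusted p under 0.05, both lower. The list was chosen on these samples, so its counts are not independent evidence of a direction. Pax6 was 2.42 to 7.21 FPKM in MPTP + EX and 3.80 to 9.37 in MPTP, Pou3f2 6.77 to 9.52 against 6.26 to 7.26, and Zkscan6 3.67 to 4.05 against 2.90 to 4.55. Nrep (23.5 to 40.4 against 22.7 to 76.5 FPKM) and Crtam (0.360 to 1.30 against 0.182 to 5.35) had their highest values in M21, the mouse with the most cerebellar marker RNA. Fat1, Fat3 and Fat4 differed by 0.03, 0.10 and -0.22, and all these groups overlapped.

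Whether the SN responded differently from another region was tested within mice, on the SN minus the other region. No gene passed adjustment against the cortex (lowest adjusted p = 0.25, 677 of 13803 at an unadjusted p under 0.05, 4.9%) or the cerebellum (lowest 0.0861, 893 of 13842, 6.45%). Against the striatum without E29, 2 of 13866 passed and 1463 (10.6%) were at an unadjusted p under 0.05. One was Fezf2, with a difference of -1.27 in the SN and 0.56 in the striatum (adjusted p = 0.0417), where Slc17a7 and Neurod2 were also higher on average (1.41 and 1.12). The other was Gm12191, a predicted gene at 112, 87.8, 58.6 and 82.7 FPKM in the SN of E26 to E29 and 25.6, 77.5, 25 and 11 in M6, M16, M21 and M23, with differences of 1.57 in the SN and -2.75 in the striatum (adjusted p = 0.00848). With E29 kept, neither passed.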

How the data were processed

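RNA was extracted with TRIzol from each region of each mouse. FPKM of 23366 gene names in 48 libraries were deposited by the authors as 1 table. Per the study's methods FPKM came from Tophat2, Cufflinks and RSEM, while the submitters' processing notes name HISAT2 (version 2.1), HTSeq (version 0.11) and build mm9, and the sources do not say which of them made the values. The extract protocol of the labels speaks of cultured cells. The 27 gene names turned into dates were left out (0.236% to 0.267% of the sum in the 8 libraries compared).

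Columns were tied to groups by region and by the letters of their names, and mice were followed across regions by the same names. For the SN, log2(FPKM + 1) of 13496 genes with a mean FPKM above 1 over the 8 libraries was tested with limma (version 3.58.1, intensity trend, two-sided) in R (version 4.3.3), adjusted by Benjamini-Hochberg over all genes. A pseudocount of 1 understates differences of low genes. P-values measure the spread between 4 mice a group. Regions were compared on within-mouse differences. Cortex-rich and SN-rich genes were set from saline libraries. The script was tested on simulated data. Python (version 3.11.15) with matplotlib (version 3.10.9) drew the figures.

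The 8 libraries were set by region and treatment alone, though earlier results of these data were already known. The 43 gene lists (1088 genes, 1083 in the table, written by hand) and the tests were chosen with those results known. Genes named are those past adjustment, the 15 lowest p without overlap in each direction, Th, Slc6a3, Slc18a2, Ddc, the study's genes, 5 or fewer lowest-p members of each list, and the 5 lowest p of each test between regions. Others are said to be named afterwards. As alternatives, each mouse was left out, saline mice were added to the fit, values were brought to a common median or quantile normalized, libraries were weighted, the trend was dropped, the pseudocount was 0.1, and the filter was removed or set on the highest group mean. Sequences were not used here, and a few genes are not reported here.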

Additional observations from a re-analysis of the deposited data

Results flagged for a closer look

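Among 240 groups of 4 mice looked at for the genes named, 16 (6.67%) held a mouse whose gap to the others was past Dixon's critical value, and chance gives about 1 in 20. In the MPTP group, M23 was high for Npy (34.9 FPKM, others 13.7 to 15.8), Baiap2 (40.1, others 24.9 to 26) and Iqsec2 (19.1, others 15.5 to 16.1). M6 was low for Per1 (23.9, others 28.5 to 29) and high for Slc2a3 (37.5, others 34.5 to 34.7). M21 was high for Col3a1 (1.30, others 0.557 to 0.679) and Slc1a3 (137, others 109 to 111), and M16 for Ppp1r14a (164, others 137 to 140) and the haemoglobin gene Hba-a2 (5740, others 876 to 1310). In the MPTP + EX group, E27 was high for Fabp7 (74.8, others 47.5 to 49.4) and Kcnip2 (7.53, others 6.09 to 6.24) and low for Unc5a (12.0, others 14.5 to 15). E29 was high for Slc5a7 (8.03, others 0.111 to 0.391), for Prph, a filament protein of motor and sensory neurons (3.81, others 0.856 to 1.24), and for Sema3f (11.2, others 7.42 to 8.04). E26 was high for Per3 (11.5, others 8.77 to 9.20).

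The difference between MPTP + EX and MPTP was unequal in SN and striatum, by the within-mouse test without E29, for Fezf2 (SN minus striatum -1.83 on the log2 scale) and Gm12191 (4.32).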

How the results depend on the processing

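The number of genes past adjustment was 0 with no filter, with saline mice in the fit and over genes no higher in the saline cortex (the last added after the data were seen), and 0 to 37 when a mouse was left out. Genes higher at an unadjusted p under 0.05 were 744 with library weights and 340 to 846 when a mouse was left out (846 without E29), and lower ones 434 to 648. Without overlap, which fewer mice make easier, 475 to 811 genes were then higher and 436 to 653 lower. Over genes no higher in the saline cortex, 112 were lower, and 77 lower without overlap. Against the cerebellum, 0 to 3 genes passed when a mouse was left out. Against the striatum it was 0 to 8, 1 with a pseudocount of 0.1 and 0 with E29. The median of excitatory neuron markers was -0.586 without M23, and that of interneuron markers -1.13 with a pseudocount of 0.1. Slc6a3 was at 0.00436 with library weights. Log2 differences near 0 turned sign when a mouse was left out, and ranged from -0.323 to 0.0759 for Th, -0.225 to 0.132 for Slc6a3, -0.0221 to 0.142 for Slc18a2, -0.0156 to 0.192 for Ddc, -0.0671 to 0.115 for Fos, -0.11 to 0.37 for Prph, -0.032 to 0.137 for Zkscan6, -0.0638 to 0.155 for Fat1 and -0.508 to 0.0619 for Nrep. No other result named turned sign. The cause of these shifts was not tested. No paired analysis was possible because the columns carry no replicate number of the labels and the groups hold different mice. FPKM without read counts give no counting error, and a p that misses the threshold does not show that levels were equal.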
